A study of Mus musculus with 17 samples.

Results

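Glomerular WT1 regions without a podocyte peak were stretches of the genome at which WT1 was called bound in isolated mouse glomeruli, both after adriamycin and after vehicle, and in none of the purified podocyte samples. They were found by merging the peaks of 5 deposited lists into regions wherever peaks overlapped or touched, and by keeping the regions that held a peak in both glomerular lists and none in the 3 podocyte lists. Of 41766 merged regions, 13232 had a peak in both glomerular lists, and 1247 of these, or 9.42% (95% Wilson interval 8.94 to 9.93), had no podocyte peak. The regions were thus chosen by the peak calls themselves, so their presence and absence in the lists is a description and was given no test.

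WT1 is a zinc-finger transcription factor that binds DNA and is required for the formation and upkeep of podocytes, the epithelial cells whose foot processes cover the glomerular capillaries. A glomerulus also holds endothelial cells, mesangial cells and the parietal epithelium of Bowman's capsule, which can contain WT1-positive cells. In chromatin immunoprecipitation followed by sequencing (ChIP-seq), DNA bound by a protein is pulled down with an antibody and sequenced, and a peak is a place where reads exceed the local background.

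The study followed WT1 binding through podocyte injury by adriamycin (doxorubicin, ADR), a drug toxic to podocytes, with phosphate-buffered saline (PBS) as vehicle. All mice were 7 to 8 weeks old and labelled wildtype, and one WT1 antibody served all 15 immunoprecipitations. Isolated glomeruli came from BALB/cJ mice and gave 4 ADR and 4 PBS libraries, with 2 input libraries beside them. Purified podocytes came from mTmG-Nphs2cre mice, in which a recombinase driven by the promoter of podocin marks podocytes, and numbered 3 libraries for PBS, 2 for day 9 of ADR and 2 for day 14. The labels give no day for the glomeruli or for PBS podocytes. Strain, the purification of cells, the number of libraries and the presence of input libraries all differed between glomeruli and podocytes. No input is labelled for podocytes. These differences therefore cannot be told apart in any region set by their contrast.

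One peak list stood for each group, so no value below has a replicate error and no test between groups was possible. The lists held 16634 peaks in ADR glomeruli, 29082 in PBS glomeruli, and 23402, 31949 and 6694 in PBS, day 9 and day 14 podocytes. The smallest −log10 q was 1.31 for ADR glomeruli and 1.32 for PBS glomeruli, and for podocytes it was 1.51 with PBS, 1.52 on day 9 and 2.25 on day 14. Read depth is unknown from such lists. Intervals beside shares of regions are 95% Wilson intervals, which cover the counting error of regions and not variation between animals. No annotation or genome of mm9, the build of the files, was used, so that no gene, promoter or sequence was assigned to a region and the markers of glomerular cell types were not analysed here.

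The regions without a podocyte peak were weak WT1 sites within their own lists. The authors' fold enrichment of a peak over its local background had a median of 5.90 in ADR glomeruli (quartiles 5.08 and 7.13), while the other 11985 regions with both glomerular peaks had a median of 8.12 there (6.14 and 11.8). In PBS glomeruli it had a median of 5.75 (4.78 and 7.18), against 10.1 (6.87 and 15.2) in the other regions. Ranked within the ADR list by fold enrichment, the median region stood at percentile 29.4, against 59.6 for the other regions. In the PBS list the medians were percentile 29.2 and 68.3. The enrichment of a site in whole glomeruli cannot tell fewer bound cells from weaker binding in each cell.

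Few of these regions were strong in either list. Of the 1247, 70 (5.61%, 4.47 to 7.03) lay in the top 25% of the ADR list, that is at percentile 75 or above, against 3879 of the other regions (32.4%) and 29.8% of all regions with both glomerular peaks. In the PBS list 44 did (3.53%, 2.64 to 4.70), against 41.5% of the other regions and 37.9% of all. At percentiles under 25 stood 528 of them (42.3%) in the ADR list and 542 (43.5%) in the PBS list, against 18.0% and 13.1% of the other regions and 20.3% and 16.0% of all. Peaks reaching a −log10 q of 10 in each of the glomerular lists were present at 121 of the regions (9.70%, 8.18 to 11.5), against 48.2% of the other regions and 44.6% of all.

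**Figure D1:**
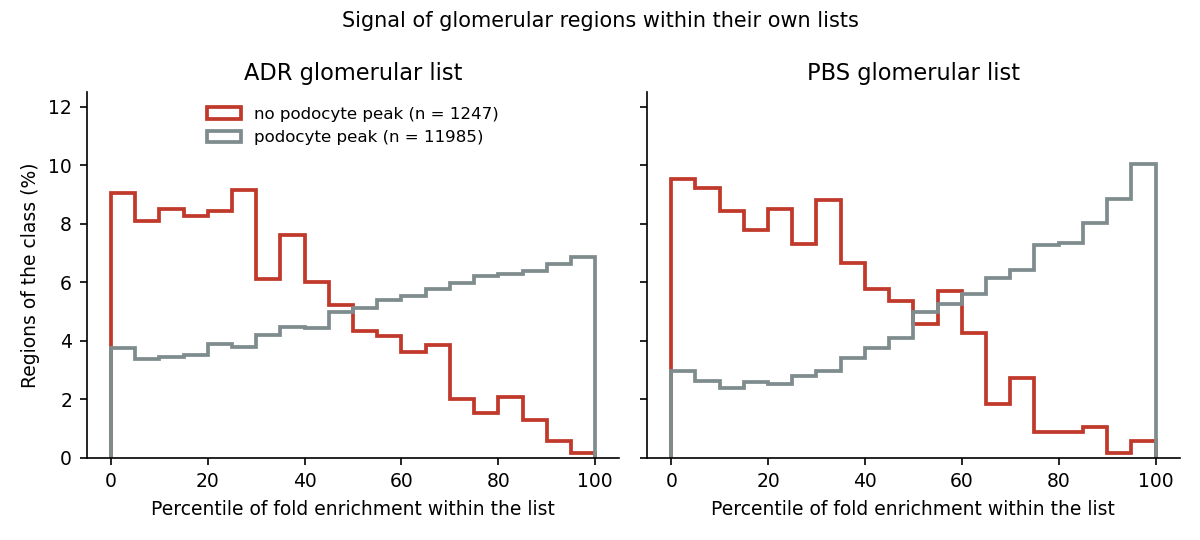
Percentile of fold enrichment within the ADR glomerular list (left) and the PBS glomerular list (right), in steps of 5 percentiles, for the 1247 regions without a podocyte peak (red) and the 11985 with one (grey), as a percentage of each class. The red lines are highest at the low end, with medians at percentile 29.4 in the ADR list and 29.2 in the PBS list, and the grey lines rise towards the high end, with medians at 59.6 and 68.3.

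The share of glomerular regions without a podocyte peak was lower in the strong bands than in the weak bands of both lists. Among regions in the weakest 10% of the ADR list, 214 of 1067 (20.1%, 17.8 to 22.6) had no podocyte peak. In the next band the share was likewise 20.1%, between percentiles 50 and 60 it was 7.76%, and above percentile 90 it was 9 of 1624 (0.554%, 0.292 to 1.05). By signal in the PBS list the share was 25.9% (23.2 to 28.9) in the weakest 10%, 9.45% between percentiles 50 and 60 and 0.396% (0.209 to 0.751) above percentile 90. Even in the weakest 10% of either list, most regions with both glomerular peaks had a podocyte peak.

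**Figure D2:**
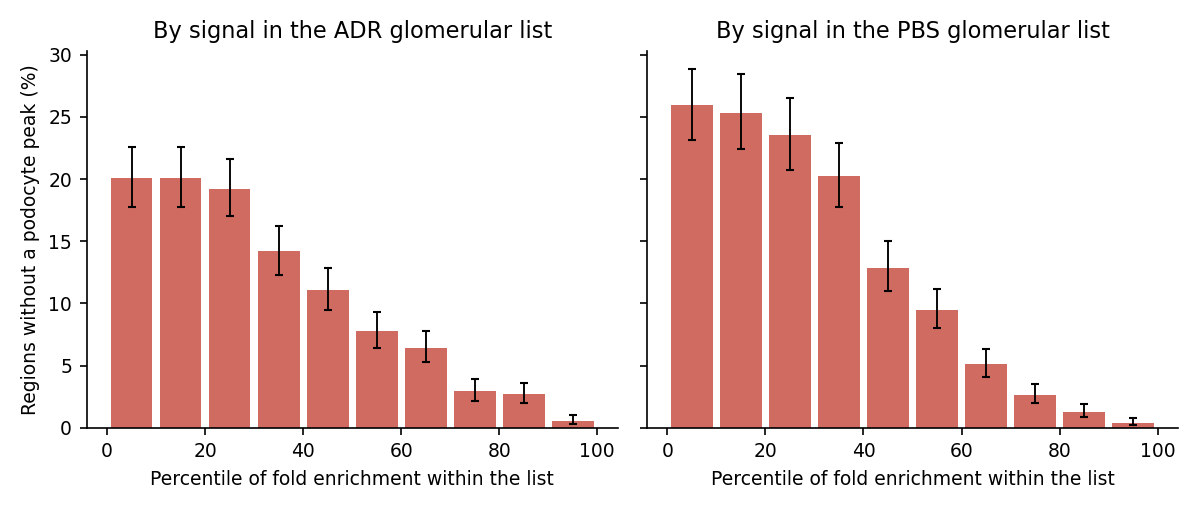
Percentage of regions with both glomerular peaks that had no podocyte peak, in bands of 10 percentiles of fold enrichment within the ADR list (left) and the PBS list (right), with 95% Wilson intervals. The bars stand at 0.554% in the strongest band of the ADR list and 0.396% in that of the PBS list.

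The 3 podocyte lists took unequal parts in setting these regions apart. Of the other 11985 regions, the PBS list had a peak at 10826, the day 9 list at 11561 and the day 14 list at 4718. The day 9 list alone supplied the podocyte peak at 1109 regions and the PBS list alone at 422, and at 0 regions did the day 14 list alone. Left without the day 9 list, the rule would have kept 2356 regions, and without the PBS podocyte list 1669.

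Signal in ADR glomeruli followed signal in PBS glomeruli only loosely. Spearman's rho between the fold enrichments was 0.27 across the 1247 regions and 0.49 across the other 11985. These are a description, since regions of a list share their libraries. A narrower range of signal can also lower rho, and its part here was not tested. The percentiles were both under 25 at 276 regions (22.1%, against 4.98% of the other regions and 6.60% of all), both at 75 or above at 13 (1.04%, against 22.4% of the other regions), and opposite at 20 regions. Of these last, 14 (1.12%, 0.670 to 1.88) stood in the top 25% of the ADR list and the bottom 25% of the PBS list, near the 1.01% of the other regions and 1.02% of all. The other way round stood 6 (0.481%, 0.221 to 1.05), against 3.26% of the other regions and 397 of all 13232.

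**Figure D3:**
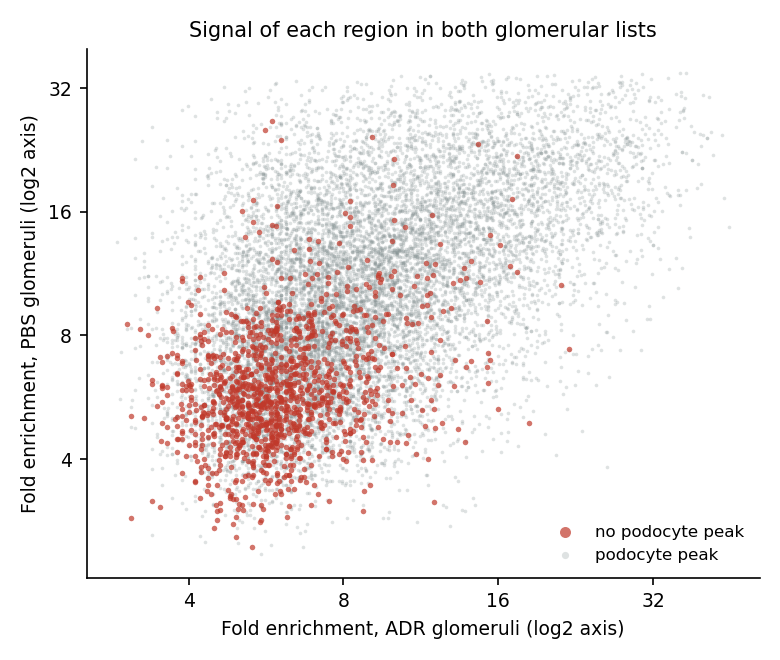
Fold enrichment of each region in ADR glomeruli (horizontal, log2 axis) and PBS glomeruli (vertical, log2 axis), with regions without a podocyte peak in red and those with one in grey. Most red points lie at the low end of both axes, and those that reach the highest ADR value, 21.9-fold, and the highest PBS value, 26.7-fold, are different regions.

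In all, 13 regions were in the top 25% of both glomerular lists, where 20.3% of all regions with both glomerular peaks stood. The strongest by its lower percentile lay on chromosome 9 (chr9:62299641-62300224, mm9), with 17.4-fold enrichment in ADR glomeruli and 21.9-fold in PBS glomeruli. Its summits, the positions of highest pileup, lay 12 bp apart, and the nearest podocyte peak, from day 9, was 3380 bp away. PBS and day 14 podocytes also had peaks close to it, at 3450 and 3540 bp.

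The next of these strong regions was on chromosome 18 (chr18:44793547-44793963), with 17.0-fold enrichment in ADR glomeruli and 17.2-fold in PBS glomeruli. Its nearest podocyte peak lay 7894 bp away. A region on chromosome 16 (chr16:90408133-90408586) had 14.6-fold enrichment in ADR and 23.4-fold in PBS glomeruli, with a day 9 peak 3828 bp away. Those on chromosome 6 (chr6:89232629-89233015, 15.4-fold in ADR and 14.05-fold in PBS glomeruli) and chromosome 2 (chr2:105064394-105064764, 12.3-fold and 13.4-fold in the same order) stood farther from podocyte peaks, at 42205 and 84087 bp. In all 13, the ADR and PBS summits lay within 25 bp of each other, and 6 of the 13 had a podocyte peak within 10 kb.

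Of the 5 regions with the highest enrichment in ADR glomeruli, 4 stood at a lower percentile in the PBS list, which picking the highest of a list by itself favours. A region on chromosome 3 (chr3:84575896-84576297) led with 21.9-fold in ADR glomeruli, percentile 96.4 of that list, and 7.40-fold in PBS glomeruli, percentile 49.3. A second on the same chromosome (chr3:88897094-88897519) had 21.2-fold and 10.6-fold, with the summits 1 bp apart and a PBS podocyte peak 1999 bp away. On chromosome 19, chr19:5929502-5929911 combined 18.4-fold enrichment in ADR glomeruli with 4.88-fold in PBS glomeruli, percentiles 93.5 and 15.6. On chromosome 4, chr4:140345876-140346230 had 17.4-fold and 11.4-fold. The region on chromosome 9 described above was the fifth.

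Of the 5 regions with the highest enrichment in PBS glomeruli, 3 stood under percentile 50 of the ADR list. On chromosome 3, chr3:58863889-58864507 had 5.82-fold in ADR glomeruli, percentile 28.3, and 26.7-fold in PBS glomeruli, percentile 98.4. On chromosome 8, chr8:109463498-109463925 had 5.63-fold in ADR and 25.3-fold in PBS glomeruli, percentiles 24.5 and 98.0. On chromosome 9, chr9:49342142-49342632 had 6.06-fold and 23.9-fold, percentiles 32.5 and 97.2. The remaining ones were chr19:51848466-51848991, with 9.08-fold in ADR and 24.4-fold in PBS glomeruli, and the chromosome 16 region above. Here too, picking the highest of a list by itself favours a lower percentile in the other. The lists differ in length, so that these values rank a site within each list and measure no change with ADR.

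The peaks of both glomerular lists fell close to the same position, which the rule in part fixes, since it merges only peaks that overlap or touch. Over all levels of signal together, agreement within 100 bp was as in the other regions, and within 25 bp it was less frequent than there. The summits were a median of 24 bp apart (quartiles 11 and 48), and within 100 bp at 1155 regions (92.6%, 91.0 to 93.9), against 92.4% of the other regions and 92.4% of all. Within 25 bp lay 52.8% of the regions (50.1 to 55.6) and 64.4% of the others, with 63.3% of all. Summit agreement followed signal, and in the bottom 25% of the ADR list 88.1% of the regions and 85.1% of the others had summits within 100 bp. The median distance in that band was 34 bp, against 27 bp. In the top 25% of the ADR list the shares within 100 bp were 100% and 96.8%. That share was above the share of the others in every band of 25 percentiles of both lists. The bands were added after the data were seen. At 1192 regions (95.6%) each summit fell inside the peak of the other list, close to the 96.0% of the other regions and 96.0% of all. One peak from each list made up 1234 of the regions (99.0%, 98.2 to 99.4), against 92.4% of the other regions and 93.0% of all. The rest held 2 ADR peaks and 1 PBS peak (9 regions) or 1 ADR peak and 2 PBS peaks (4 regions). Since peaks of all lists were merged, in the other regions a podocyte peak can join glomerular peaks that do not touch. That cannot happen in regions without a podocyte peak. The contrasts in peaks per region and in summit distance are therefore in part built in.

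The peaks were also narrower than in the other regions, but wider than in regions of a single glomerular list. Median width was 252 bp in ADR glomeruli (quartiles 210.5 and 309), against 333 bp in the other regions, and 287 bp in PBS glomeruli (235 and 362.5), against 444 bp. Regions in ADR glomeruli alone had a median ADR width of 228 bp, and those in PBS glomeruli alone a median PBS width of 240 bp. In the bottom 25% of the PBS list, PBS peaks were a median of 253 bp wide at the regions without a podocyte peak and 288 bp at the others. In the top 25% of that list the medians were 390 and 538 bp. In the bottom 25% of the ADR list, ADR peaks were a median of 227 bp wide without a podocyte peak and 238 bp with one. In the top 25% of the ADR list these medians were 357 and 444 bp.

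The nearest podocyte peak was farther off, by the median, than for the other glomerular regions. A podocyte peak lay within 10 kb of 524 of the 1247 regions (42.0%, 39.3 to 44.8), against 7362 of the other regions (61.4%, 60.6 to 62.3), where peaks within the region itself were not counted, and 59.6% of all. The median distance was 14.2 kb (quartiles 3.78 and 39.0), against 5.58 kb (1.26 and 20.3). Regions in one glomerular list alone, at median percentiles of 24.9 in the ADR list and 24.8 in the PBS list, stood between these, at 49.4% (46.8 to 52.0) for ADR glomeruli alone and 51.6% (50.2 to 53.0) for PBS glomeruli alone. Other glomerular sites were also farther off, with the nearest other region holding a glomerular peak at a median of 11.3 kb, against 6.45 kb. The podocyte lists that give the distance also set the classes with and without a podocyte peak, so the gap is a description. No test over regions was made, since neighbouring regions share their libraries.

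The gap in distance was present at every level of signal examined, in bands of 25 percentiles added after the data were seen. Such bands do not remove the choice of both classes by the same podocyte lists that give the distance. In the bottom 25% of the PBS list, 44.5% of the regions (40.3 to 48.7) and 55.0% of the others (52.5 to 57.4) had a podocyte peak within 10 kb. In the next 2 bands the shares were 41.4% and 39.5%, against 55.3% and 57.6%. In the top 25% the shares were 14 of 44 (31.8%, upper limit 46.6) and 68.5% (67.2 to 69.8). By the same bands of the ADR list the shares were 44.9% in the lowest, then 41.6%, then 36.6%, and 28 of 70 in the highest, for the regions without a podocyte peak. For the others they were 60.2, 59.5, 60.3 and 64.3%.

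**Figure D4:**
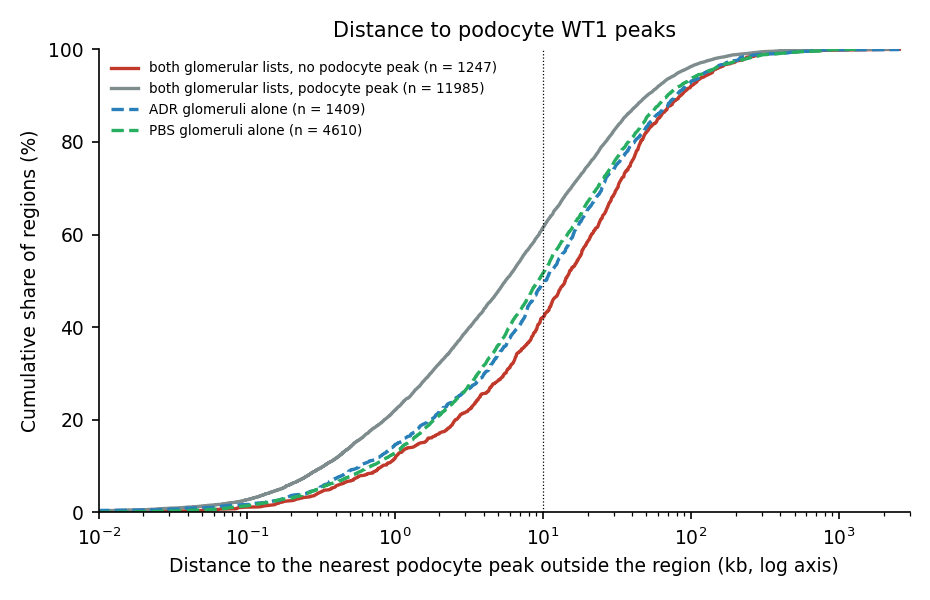
Cumulative percentage of regions against the distance to the nearest podocyte peak outside the region (kb, log axis, values under 0.01 kb drawn at 0.01), with a dotted line at 10 kb. The red line, for regions with both glomerular peaks and no podocyte peak, passes 10 kb at 42.0%, below regions in ADR glomeruli alone at 49.4%, in PBS glomeruli alone at 51.6% and with both glomerular peaks and a podocyte peak (grey) at 61.4%.

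Peaks of all 3 podocyte groups were found around the regions, in the order of the lists' lengths. PBS podocytes had a peak within 10 kb of 422 regions (33.8%), day 9 podocytes of 491 (39.4%) and day 14 podocytes of 134 (10.7%). The nearest podocyte peak came from day 9 alone at 736 regions, from PBS alone at 504 and from day 14 alone at 1, and 6 regions had peaks equally near in more than one list. The same shares by podocyte list were not computed for the other regions, so that this order cannot be called particular to these regions.

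A podocyte peak stood within 1 kb of 145 regions (11.6%, 9.97 to 13.5), against 22.1% of the other regions (21.3 to 22.8), where peaks inside the region were again not counted, and 21.1% of all. At 109 of these (75.2%, 67.6 to 81.5) the merged region of that podocyte peak also held a glomerular peak. At 72 (49.7%) it held a peak in both glomerular lists. Over all 145 neighbours, with or without a glomerular peak, the strongest podocyte peak stood at a median percentile of 38.0 in its list. Of the 145 neighbours, 108 held a PBS podocyte peak, 126 a day 9 peak and 26 a day 14 peak. The same shares over all regions with a podocyte peak were not computed, so that these counts cannot be called particular to the neighbours.

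Regions just inside and just outside the rule were few. The 5 nearest to a podocyte peak stood 5, 9, 10, 37 and 49 bp from one. The first, on chromosome 15 (chr15:57723647-57724093), had 5.91-fold enrichment in ADR and 4.37-fold in PBS glomeruli, and the peak beside it was from day 9. Just outside, the 5 regions with the least overlap shared 25, 31, 40, 46 and 49 bp with a podocyte peak of at most 5.26-fold enrichment, on chromosomes 9, 11, 4, 7 and 19. The weakest peaks within the rule had a −log10 q of 1.51 in ADR glomeruli, at 4 regions, and 1.53 in PBS glomeruli, at a region on chromosome 18 with 5.31-fold enrichment in ADR and 2.44-fold in PBS glomeruli.

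At the other end, 99 of the 1247 regions (7.94%, 6.56 to 9.57) had no podocyte peak within 100 kb, against 3.72% of the other regions and 4.12% of all. The most remote lay on chromosome 5 (chr5:58109168-58109428), 2550513 bp from a PBS podocyte peak, with 6.32-fold enrichment in ADR glomeruli and 4.79-fold in PBS glomeruli. On chromosome 4, chr4:17780338-17780656 stood 1596697 bp from a day 9 peak, with 8.74-fold and 5.66-fold. On chromosome 17, chr17:95149203-95149429 stood 1151319 bp away, with 5.82-fold and 6.28-fold. The fourth, on chromosome 11, was weak in both lists, at 3.80-fold and 4.47-fold. The fifth, on chromosome 13 (chr13:72765863-72766268), was strong in ADR glomeruli at 15.2-fold, percentile 89.3, and had 6.14-fold in PBS glomeruli, with the nearest podocyte peak 717322 bp away at day 9.

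The regions were spread over 19 autosomes and the X chromosome. As a share of the regions with both glomerular peaks they ranged from 11 of 220 on the X chromosome (5.00%, 2.81 to 8.73) to 88 of 671 on chromosome 8 (13.1%, 10.8 to 15.9), beside 9.42% over all chromosomes. Chromosomes 4 (98 of 896, 10.9%) and 11 (122 of 1137, 10.7%) followed, and chromosome 10 was the lowest autosome with 42 of 663 (6.33%, 4.72 to 8.45). On chromosome 8, 34.9% of the glomerular regions stood under the median fold of the PBS list, against 34.6% over all chromosomes. Among these, 72 of 234 (30.8%) had no podocyte peak, against 21.1% over all chromosomes. On the X chromosome 23.2% stood under that median, and among these 10 of 51 (19.6%) had none. Both chromosomes were picked as the extremes of the range, which by itself favours shares away from that over all chromosomes. No test between chromosomes was made.

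**Figure D5:**
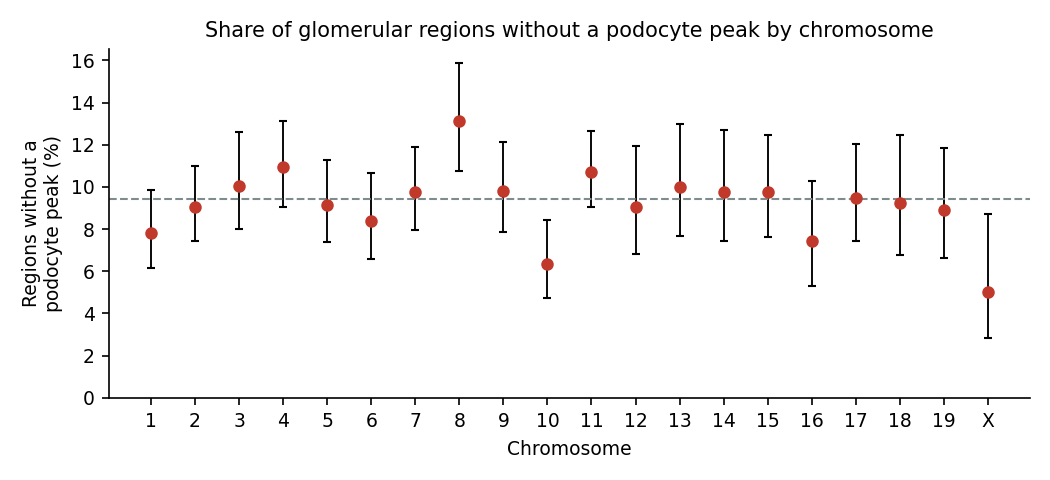
Percentage of regions with both glomerular peaks that had no podocyte peak, by chromosome (points) with 95% Wilson intervals, and the value over all chromosomes, 9.42%, as a dashed line. Chromosome 8, at 13.1%, is highest and the X chromosome, at 5.00%, lowest.

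Most of the regions were the only one of their kind in their window, though other glomerular sites lay nearer, at a median of 11.3 kb. The nearest other region of the same kind was a median of 255.2 kb away, and 997 of them (80.0%) were the single one in their window of 100 kb. Of 1110 windows with any, 97 held 2 such regions, 9 held 3, 6 held 4 and 1 held 5. A window held no podocyte summit at all for 230 of the regions (18.4%, 16.4 to 20.7). The same shares for the other regions, or for a set of equal size, were not computed. These values therefore show neither isolation nor clustering.

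The window with 5 was on chromosome 11 (chr11:114700001-114800000), where 5 of 7 regions with both glomerular peaks had no podocyte peak. It held 10 summits in ADR glomeruli, 7 in PBS glomeruli, and 3, 3 and 1 in PBS, day 9 and day 14 podocytes. The first of its 5 regions was the strongest in ADR glomeruli, at 13.1-fold, and had 6.02-fold in PBS glomeruli, and the other 4 lay between 4.35-fold and 6.92-fold in ADR and 4.68-fold and 7.97-fold in PBS glomeruli. The 6 windows with 4 were chr11:118200001-118300000, chr12:12900001-13000000, chr18:75800001-75900000, chr2:152500001-152600000, chr4:150200001-150300000 and chr6:128300001-128400000. In the same order they held 12, 5, 5, 6, 8 and 5 regions with both glomerular peaks. That on chromosome 6 held 5 summits in ADR glomeruli, 5 in PBS glomeruli, and 1, 3 and 1 in PBS, day 9 and day 14 podocytes. The windows on chromosomes 18 and 2 had 0 summits at day 14.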

How the data were processed

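WT1 ChIP-seq of 15 immunoprecipitations and 2 inputs was deposited as 5 peak lists, 1 for each group. Per the submitters' processing notes, the tools were Bowtie 0.12.7 and MACS2 and the build was mm9. The pooling of replicates, the control and the caller's cutoff are not stated in the sources used here. Fold enrichment, a ratio over local background, and each peak's −log10 p and −log10 q are the authors' deposited values and were used only within a list. The deposited integer score entered no result. Coordinates are 1-based in mm9.

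Peaks of all lists were merged when they overlapped or touched. A region was given the peak with the highest fold enrichment of each list, and its percentile is the rank of that peak among all peaks of the list. Distances run from region edge to peak edge. Shares carry 95% Wilson intervals, and for the shares compared with the other regions the percentage over all regions with both glomerular peaks is given. Regions named are the 5 highest in fold enrichment in each list, in the lower percentile and in distance, the 5 nearest to and just outside the rule, the 5 weakest and the densest windows of 100 kb (7, with ties). The planned gene lists, promoter distances and motif searches need an annotation or genome of mm9 and were not run. The region class and these measures were chosen with earlier results of these data known. The merging and distance code was tested on simulated lists. Python 3.11.15 was used with scipy 1.17.1, pandas 2.3.3, numpy 2.4.6 and matplotlib 3.10.9.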

Additional observations from a re-analysis of the deposited data

How the results depend on the processing

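The number of regions depended on how absence was judged. From 1247 it moved to 723 with no podocyte peak allowed within 10 kb, 236 with a −log10 q of at least 10 in all lists, 121 with that limit in the glomerular lists, 2281 with it in the podocyte lists and 2356 without the day 9 list. The share of regions with both glomerular peaks, 9.42%, moved to 5.46%, 4.00%, 2.05%, 17.2% and 17.8% in the same order, to 8.33% with none allowed within 1 kb and to 12.6% without the PBS podocyte list. The share in the top 25% of the ADR list, 5.61%, moved to 36.0% with the q limit in all lists, 38.8% with it in the glomerular lists and 8.96% without the day 9 list. In the PBS list it moved from 3.53% to 19.9%, 18.2% and 4.75%. A q limit on glomerular peaks removes weak peaks by construction. The share with a podocyte peak within 10 kb, 42.0%, moved to 34.4% with none allowed within 1 kb, 30.5% with the q limit in all lists, 31.4% with it in the glomerular and 36.3% in the podocyte lists, and 39.3% without the PBS podocyte list. Leaving out a podocyte list, or limiting its peaks by q, can only keep or add regions. Allowing no podocyte peak within 1 or 10 kb can only keep or remove them. Those removed at 1 kb all count as within 10 kb, so that share falls by construction too. Beyond this, the causes of the moves were not tested. Of 54 values recomputed, the remaining 31 stayed within the main interval, or within 1.5 times the main count. The day 14 list alone supplied the podocyte peak at 0 regions. Leaving it out therefore kept the same 1247 regions and moved 0 values, so that its values among the 31 are no separate check. The 2 values on regions below the PBS list median were added after the data were seen. The promoter and motif alternatives were not run. No paired analysis was possible because 1 list stands for each group, so that no replicate could be left out. Without read totals, weak binding in podocytes below the caller's limit was not detectable.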

Other observations

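In stretches of 10 Mb, chosen after the data were seen, the share of glomerular regions without a podocyte peak varied around 9.42%. Of 143 stretches with at least 40 regions, the highest share was on chromosome 4 (chr4:150000001-160000000), at 21 of 81 regions (25.9%, 17.6 to 36.4), and this stretch contains one of the windows with 4 such regions. Next came chromosome 5 (chr5:110000001-120000000), at 18 of 85 (21.2%, 13.8 to 31.0), and chromosome 12 (chr12:10000001-20000000), at 8 of 40 (interval 10.5 to 34.8%). At the low end, 2 stretches held 0, with 41 regions on chromosome 1 (chr1:50000001-60000000) and 48 on chromosome 10 (chr10:90000001-100000000), which allows up to 8.57% and 7.41% by the upper Wilson limits. No test between stretches was made.

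Among the 14 regions in the top 25% of the ADR list and the bottom 25% of the PBS list, a region on chromosome 3 (chr3:107632531-107632927) had 16.0-fold enrichment in ADR glomeruli and 5.29-fold in PBS glomeruli, with a day 9 podocyte peak 830 bp away. Among the 6 of the opposite kind, chr6:142224543-142225002 had 5.33-fold in ADR and 17.1-fold in PBS glomeruli, and chr11:6080972-6081313 had 5.09-fold and 16.1-fold, with both summits at the same base.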
